A study of Mus musculus with 8 samples.

Results

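The genes described are 10 transcription factor genes of the AP-1 and immediate early class, namely Fos, Fosb, Fosl1, Fosl2, Jun, Junb, Jund, Egr1, Atf3 and Batf. They were taken by gene symbol from a table of 55536 genes, and each of the 10 was found as 1 row. The samples were 8 cultures of MIN6, a mouse insulin-producing β-cell line of WT genotype, each lipid-transfected with Lipofectamine 3000 for 48 h. Control cells (n = 4) received the pcDNA 3 empty vector and the others (n = 4) received pGloMyc-Klf4, which expresses the zinc-finger factor Klf4. The plasmid names differ, so the backbone and Klf4 changed together. Batch 1 held replicates 1 and 2 of each group, and batch 2 held the others. One label field describes RNA taken from islets, whereas every sample is named as the cell line. Polyadenylated RNA was sequenced, and p-values measure the spread between these libraries, which the series calls biological replicates.

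AP-1 is a family of dimers formed through a basic leucine zipper (bZIP). Proteins of the Fos family pair with proteins of the Jun family, and the dimer binds a short palindromic DNA site. Several of these genes, among them Fos, Fosb, Jun, Junb and the zinc-finger gene Egr1, are immediate early genes, transcribed within minutes of a stimulus such as a growth factor, membrane depolarisation or stress and then shut off again. Fosl1 and Fosl2 encode Fra-1 and Fra-2, Fos-family proteins that lack the strong transactivation domain of Fos. Atf3 encodes a stress-induced bZIP factor, and Batf a bZIP factor known mainly from lymphoid and myeloid cells. In β cells, glucose and membrane depolarisation are known inducers of Fos and Egr1.

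The libraries held 45417853 to 52731176 counts each. Klf4 was at 36.1 to 42.8 CPM (a gene's counts scaled to library size and composition) in control libraries and at 4532 to 5853 CPM in Klf4 libraries, which matches the labels. The 8 β-cell markers were all detected, with a summed level of 25118 to 31865 CPM in control and 23466 to 32148 CPM in Klf4 libraries. Ins1 and Ins2 dominate that sum. Singly, 4 of the 8 fell, namely Mafa by 0.18, G6pc2 by 0.13, Pdx1 by 0.12 and Iapp by 0.07 on the log2 scale. Of the 8, 0 rose, where 15.5% of all tested genes were called lower and 21.1% higher. Mafa changed by -0.06 in batch 1 and -0.29 in batch 2, a difference called in the batch by plasmid interaction (edgeR adjusted p 0.00817). G6pc2 (-0.05 and -0.20) and Pdx1 (-0.04 and -0.18) also fell mainly in batch 2, but their interactions did not pass (edgeR adjusted p 0.103 and 0.12). Markers of other cell types were low, except for the α-cell list (762 to 893 CPM in control, 748 to 856 CPM in Klf4 libraries). Of its 5 tested genes 2 rose and 1 fell. Of 6 fibroblast markers 4 were tested and 3 rose (Dcn, Pdgfra and Col1a1), against 21.1% of all tested genes. The list summed to 2.61 to 3.85 CPM in control and 21.0 to 27.4 CPM in Klf4 libraries, with Lum at 0 in every library. Dcn made most of that rise, with means of 0.0461 and 17.6 CPM. Col1a2 was not called (0.09, edgeR adjusted p 0.734), and Col3a1 had too few counts to test. One marker each rose among the δ and PP-cell (Pyy), acinar and ductal (Krt19) and endothelial (Cdh5) lists. The sums of these lists were 0.0203 to 0.319, 1.54 to 4.24 and 4.10 to 4.48 CPM in control libraries and 0.773 to 1.92, 4.53 to 7.45 and 5.01 to 5.28 CPM in Klf4 libraries, with no overlap between groups. The 6 immune markers summed to 6.35 to 6.96 and 6.39 to 7.95 CPM, and none of the 3 tested was called. The part of such marker changes in the results was not tested, and in bulk RNA fewer cells of a type and less RNA per cell cannot be told apart. Mitochondrial genes took 4.05% to 4.33% of counts in control and 3.78% to 4.32% in Klf4 libraries.

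Before any comparison, the 2 libraries of each group and batch were set against each other, because stimulus-responsive genes can vary between culture dishes. Control replicate 4 stood apart from control replicate 3 of the same batch. It held 0.692 times the Egr1 level, 0.728 times the Fos level, 0.760 times the Fosb level, 0.808 times the Jun level, 0.809 times the Atf3 level and 0.837 times the Junb level of replicate 3. Among 6656 genes averaging a log2 CPM of 5 or more, 0.0901% differed between these libraries by as much as Egr1 and 0.12% by as much as Fos. Fosl2 and Jund, at 0.985 and 0.954 times, did not share this gap. All 8 members that were abundant enough to compare were lower in replicate 4, with a median log2 ratio of -0.31, whereas 9206 of all 18266 tested genes were lower there. Of 27 other immediate early genes, 21 were lower in replicate 4 (median -0.10), while the 8 β-cell markers had a median of -0.01. In Klf4 libraries of the same batch, 7 of the 8 members were higher in replicate 4 than in replicate 3, with a median log2 ratio of 0.14. In batch 1 most signs also agreed, with smaller medians. There 7 of the 8 members (median -0.04) and 20 of the 27 other immediate early genes (-0.07) were lower in control replicate 2 than in control replicate 1. Of the 8 members, 2 were lower in Klf4 replicate 2 than in Klf4 replicate 1 (median 0.08). Every result below that turns on control replicate 4 is therefore given with and without it. Control replicate 3 was itself the highest control library for Egr1, Jun, Junb and, narrowly, Fos. For Egr1, Jun and Junb the gap thus does not single out replicate 4.

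**Figure D1:**
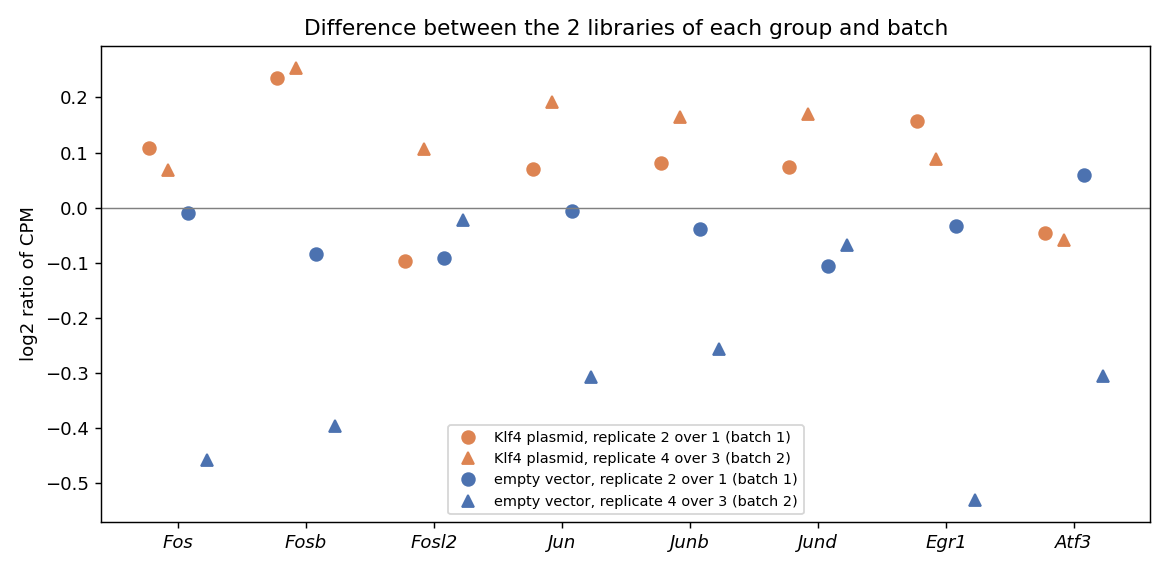
Log2 ratio of normalised expression (y axis) between the 2 libraries of each group and batch for 8 members (x axis), those averaging a log2 CPM of 1 or more. Empty-vector replicate 4 over 3 (blue triangles) lies at -0.53 for Egr1 and -0.46 for Fos, whereas the batch 1 empty-vector libraries (blue circles) differ by at most 0.11 in size.

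Promoter windows of 8 members (RefSeq, build GRCm38.p6) were used. Egr1 was left out of the search, and no window was available for Fosl1. The 250 bases before each start were searched on both strands. The windows of Jun, Junb, Atf3 and Fos are shown because the first 3 genes rose clearly in Klf4 libraries and Fos moved least surely among the called members. Capitals mark CACCC or its reverse complement GGGTG, the core of the DNA motif bound by Krüppel-like factors. The windows run 5′ to 3′ on the gene's strand. That of Atf3 precedes a RefSeq start inside the span of the gene. They lie at chr4:95052223-95052472 (minus strand) for Jun, chr8:84978749-84978998 (minus strand) for Junb, chr1:191183334-191183583 (minus strand) for Atf3 and chr12:85473640-85473889 (plus strand) for Fos.
Jun: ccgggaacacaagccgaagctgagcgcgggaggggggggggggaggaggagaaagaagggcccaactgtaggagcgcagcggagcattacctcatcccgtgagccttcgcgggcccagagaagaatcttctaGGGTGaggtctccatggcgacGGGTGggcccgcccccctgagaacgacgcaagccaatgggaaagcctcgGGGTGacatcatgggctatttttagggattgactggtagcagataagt
Junb: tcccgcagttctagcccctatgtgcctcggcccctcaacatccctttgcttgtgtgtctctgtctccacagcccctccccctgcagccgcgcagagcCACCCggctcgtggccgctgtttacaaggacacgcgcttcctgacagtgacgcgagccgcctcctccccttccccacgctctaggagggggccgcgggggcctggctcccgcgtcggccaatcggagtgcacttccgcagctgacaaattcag
Atf3: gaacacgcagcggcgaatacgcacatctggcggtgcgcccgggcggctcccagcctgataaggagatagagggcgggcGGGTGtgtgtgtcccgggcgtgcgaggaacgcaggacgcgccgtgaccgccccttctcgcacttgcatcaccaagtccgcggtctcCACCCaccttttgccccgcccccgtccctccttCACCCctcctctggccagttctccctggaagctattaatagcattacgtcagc
Fos: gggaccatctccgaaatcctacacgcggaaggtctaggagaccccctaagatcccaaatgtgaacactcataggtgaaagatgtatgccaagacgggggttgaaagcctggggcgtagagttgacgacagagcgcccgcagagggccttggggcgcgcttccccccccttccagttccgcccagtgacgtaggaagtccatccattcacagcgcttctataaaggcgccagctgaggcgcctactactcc
The motif occurred 3 times in the Jun window, 48, 97 and 118 bases before the start, and 3 times in the Atf3 window, 53, 86 and 172 bases before it. The most distant of the Atf3 matches overlaps a GC box (GGGCGG or CCGCCC). At least 3 matches were held by 6.92% of all 32851 promoter windows of this length, and at least 1 match by 52% of them. The Jund window held 2 matches, the Junb, Fosb and Fosl2 windows 1 each, and the Fos and Batf windows 0. The Jund window precedes a RefSeq start that lies upstream of the gene span given below, and the Fosl2 window lies wholly within annotated exon of the gene. A GC box was present in 6 of the 8 windows, 5 times in Atf3, and in 32.7% of all windows. The letters of the AP-1 site (TGAGTCA or TGACTCA, held by 4.46% of all windows), of the cyclic AMP response element (TGACGTCA, 1.55%) and of the CArG box bound by serum response factor (1.47%) were in none of the 8 windows. A match describes letters and is not evidence of binding.

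Of the 10 members, 9 passed the filter on low counts, and 7 of these 9 rose in Klf4 libraries at an adjusted p under 0.05 (edgeR's quasi-likelihood test with a batch term, Benjamini-Hochberg adjustment over 18266 genes), while 0 fell. Over all tested genes 21.1% were called higher and 15.5% lower. The largest rises were those of Atf3 and Fosl2, each about a doubling, followed by Fosl1, Junb, Jun and Jund, and the smallest was that of Fos. Fosb and Egr1 were not called. In 6 members every Klf4 library lay above every control library, as did 17.2% of all tested genes. Without control replicate 4 the count of called members was 6, and the member lost was Fos. Without control replicate 3 it was 9, with Fosb and Egr1 added. The median log2 fold change of the 9 members was 0.44, against -0.01 over all tested genes.

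**Figure D2:**
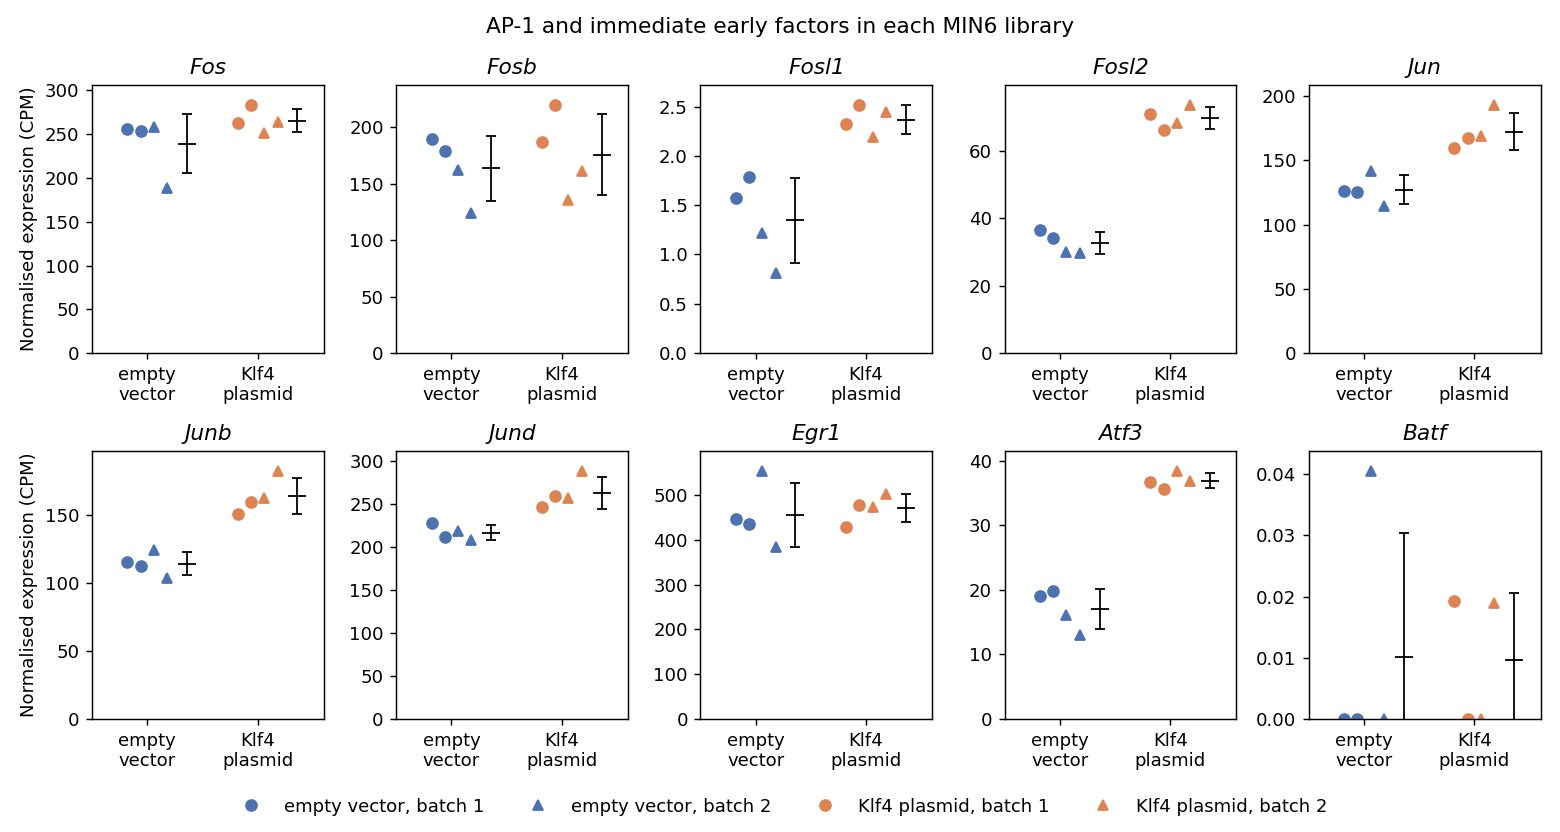
Normalised expression (CPM, y axis, from 0) of each of the 10 members in every library, with the group mean and SD (n = 4) in black to the right of the points. Fosl1, Fosl2, Jun, Junb, Jund and Atf3 show no overlap between empty-vector (blue) and Klf4 (orange) libraries, and Fos, Fosb and Egr1 overlap.

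Within the Fos family, Fosl2 (ENSMUSG00000029135, chromosome 5, 32135801 to 32157842, plus strand, GRCm38) changed most. It stood at 36.5, 34.2, 30.1 and 29.6 CPM in control replicates 1 to 4 and at 70.9, 66.3, 68.4 and 73.7 CPM in the Klf4 replicates. The groups were far apart: the lowest Klf4 library lay well above the highest control library. The means were 32.6 ± 3.31 and 69.8 ± 3.19 CPM (SD, n = 4), a 2.14-fold difference. On the log2 scale the fitted change was 1.10 (SE 0.05, edgeR adjusted p 3.79e-14). A change at least this large upward was seen in 1453 of the tested genes (7.95%). Fosl2 encodes Fra-2, and its increase was 0.95 in batch 1 and 1.26 in batch 2 on the log2 scale, a difference that did not pass the interaction test (log2 0.29, SE 0.08, edgeR adjusted p 0.0704).

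Fosl1 (ENSMUSG00000024912, chromosome 19, 5447547 to 5455946, plus strand), which encodes Fra-1, was far less abundant. Control replicates held 74, 87, 60 and 39 counts, or 1.57, 1.79, 1.22 and 0.808 CPM. Klf4 replicates held 120, 114, 115 and 129 counts, or 2.32, 2.52, 2.19 and 2.45 CPM. The Klf4 libraries were all higher and close together, whereas the control libraries differed among themselves, with replicate 4 lowest. The log2 fold change was 0.84 (SE 0.17, edgeR adjusted p 0.000516), and 0.67 (edgeR adjusted p 0.00267) without control replicate 4. In batch 1 alone, with 2 libraries a group, it was 0.52 and missed the threshold (edgeR adjusted p 0.0684). Fosl1 shares up to 1163 exonic bases with Ccdc85b on the opposite strand, and the strand setting of the counting is not given in the sources used here, so its reads are uncertain. Ccdc85b itself was at 28.9 CPM in control and 29.7 CPM in Klf4 libraries (log2 fold change 0.03, edgeR adjusted p 0.614).

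Fos (ENSMUSG00000021250, chromosome 12, 85473890 to 85477273, plus strand), the founding member of the family, was abundant and changed little. It stood at 256, 254, 259 and 188 CPM in control replicates 1 to 4 and at 263, 284, 251 and 264 CPM in the Klf4 replicates. Apart from control replicate 4, the control values lay within the Klf4 range. The log2 fold change was 0.15 (SE 0.06, edgeR adjusted p 0.0442), and over the 8 libraries taken singly the group difference in CPM did not pass (two-sided exact permutation p = 0.143). Without control replicate 4 the log2 fold change was 0.05 (edgeR adjusted p 0.302), the lowest with a single library left out. Leaving out control replicate 1 (0.15, edgeR adjusted p 0.0776), Klf4 replicate 2 (0.13, 0.11), Klf4 replicate 3 (0.14, 0.0759) or Klf4 replicate 4 (0.12, 0.176) also ended the call. It was kept without control replicate 2, control replicate 3 or Klf4 replicate 1. The call was also lost, with the fold nearly the same, without the batch term (0.15, edgeR adjusted p 0.267) and in DESeq2's Wald test (0.15, adjusted p 0.308).

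Fosb (ENSMUSG00000003545, chromosome 7, 19302696 to 19310051, minus strand), whose product is a close relative of Fos, was not called. Its control values were 189, 179, 162 and 124 CPM, and its Klf4 values 187, 220, 135 and 161 CPM. Batch 1 libraries were higher than batch 2 libraries within each group, and the groups overlapped. The log2 fold change was 0.10 (95% interval -0.04 to 0.23, edgeR adjusted p 0.259). It was 0.02 without control replicate 4 (edgeR adjusted p 0.791) and 0.18, past the threshold, without control replicate 3 (edgeR adjusted p 0.0173). Fosb was also called in batch 1 alone (0.14, edgeR adjusted p 0.0473) and with no filter on low counts (0.09, edgeR adjusted p 0.0232). The fit with no filter gave Fosb an SE of 0.03 in place of 0.06, so that call came with a smaller SE and not a larger fold.

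The 3 Jun-family genes all rose, and by less than Fosl2. Junb (ENSMUSG00000052837, chromosome 8, 84974484 to 84978718, minus strand) stood at 115, 112, 124 and 104 CPM in control replicates 1 to 4 and at 150.5, 159, 163 and 182 CPM in the Klf4 replicates. Its log2 fold change was 0.52 (SE 0.05, edgeR adjusted p 4.88e-09), and 0.45 without control replicate 4. JunB is known as a Jun protein of weaker transactivation that can restrain c-Jun. Jun (ENSMUSG00000052684, chromosome 4, 95049034 to 95052222, minus strand), which encodes c-Jun, was at 126, 126, 142 and 115 CPM in control and at 160, 168, 169 and 193 CPM in Klf4 libraries. Its log2 fold change was 0.44 (SE 0.05, edgeR adjusted p 2.1e-07), and 0.36 without control replicate 4. For both genes the Klf4 libraries lay above all control libraries.

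Jund (ENSMUSG00000071076, chromosome 8, 70698949 to 70700616, plus strand), the Jun gene known for steady expression in unstimulated cells, changed least of the 3. It was at 229, 213, 219 and 208 CPM in control replicates 1 to 4 and at 247, 259, 257 and 289 CPM in the Klf4 replicates. The gap between the groups was small beside their levels, yet no control library reached a Klf4 library. The log2 fold change was 0.28 (SE 0.04, edgeR adjusted p 4.3e-06), and 0.24 without control replicate 4. All 3 Jun genes share exonic bases with a gene on the opposite strand: Jun with Junos (232 bases at most), Junb with Prdx2 (173) and Jund with Gm11175 (877). These neighbours moved by 0.56, 0.04 and 0.29 on the log2 scale, and none was called (edgeR adjusted p 0.127, 0.313 and 0.106). Junos and Gm11175 were at 0.54 and 3.57 CPM in control libraries, below Jun and Jund, whereas Prdx2 was at 169 CPM, above Junb.

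Egr1 (ENSMUSG00000038418, chromosome 18, 34859823 to 34864984, plus strand) encodes a zinc-finger factor induced by the same stimuli as Fos and had the highest CPM of the members. Control replicates 1 to 4 held 447, 436, 554 and 384 CPM and Klf4 replicates 429, 478, 474 and 503 CPM. Both the highest and the lowest value were control libraries, replicates 3 and 4 of batch 2, so that the Klf4 libraries lay inside the control range. The log2 fold change was 0.05 (95% interval -0.09 to 0.18, edgeR adjusted p 0.617). It turned to -0.06 without control replicate 4 (edgeR adjusted p 0.295), and to 0.15, past the threshold, without control replicate 3 (edgeR adjusted p 0.024).

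Atf3 (ENSMUSG00000026628, chromosome 1, 191170296 to 191218039, minus strand) encodes a stress-induced bZIP factor that can pair with Jun proteins. It was at 19.0, 19.8, 16.1 and 13.0 CPM in control replicates 1 to 4 and at 36.7, 35.6, 38.4 and 36.9 CPM in the Klf4 replicates. The Klf4 values were nearly equal across batches, whereas the control values were lower in batch 2. The means were 17.0 ± 3.10 and 36.9 ± 1.17 CPM (SD, n = 4), a 2.17-fold difference. On the log2 scale the fitted change was 1.13 (SE 0.07, edgeR adjusted p 2.4e-11). Without control replicate 4 it was 1.02 (edgeR adjusted p 2.05e-13). Atf3 was also the member whose change differed between batches, at 0.89 in batch 1 and 1.38 in batch 2 (interaction 0.47 on the log2 scale, SE 0.10, edgeR adjusted p 0.0191). Of the 9 members 1 was called in this interaction test, against 0.766% of all tested genes. Klf4 itself was also called in it, with a rise of 6.78 in batch 1 and 7.17 in batch 2 (interaction 0.37, edgeR adjusted p 0.0057). A link between this and the batch differences of Atf3 or other genes was not tested. Without control replicate 4 the Atf3 interaction was 0.33 (edgeR adjusted p 0.265). The interaction call was also lost without control replicate 2 (0.42, edgeR adjusted p 0.0687), Klf4 replicate 1 (0.50, 0.066), Klf4 replicate 2 (0.45, 0.16) or Klf4 replicate 3 (0.43, 0.1).

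Batf (ENSMUSG00000034266, chromosome 12, 85686669 to 85709087, plus strand) was at the limit of detection and was not tested. Control replicates 1 to 4 held 0, 0, 2 and 0 counts and Klf4 replicates 1, 0, 0 and 1 counts. A count of 0 allows a level of up to 0.0569 to 0.0663 CPM in these libraries (3 counts, counting error only), so no difference was detectable at this depth.

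**Figure D3:**
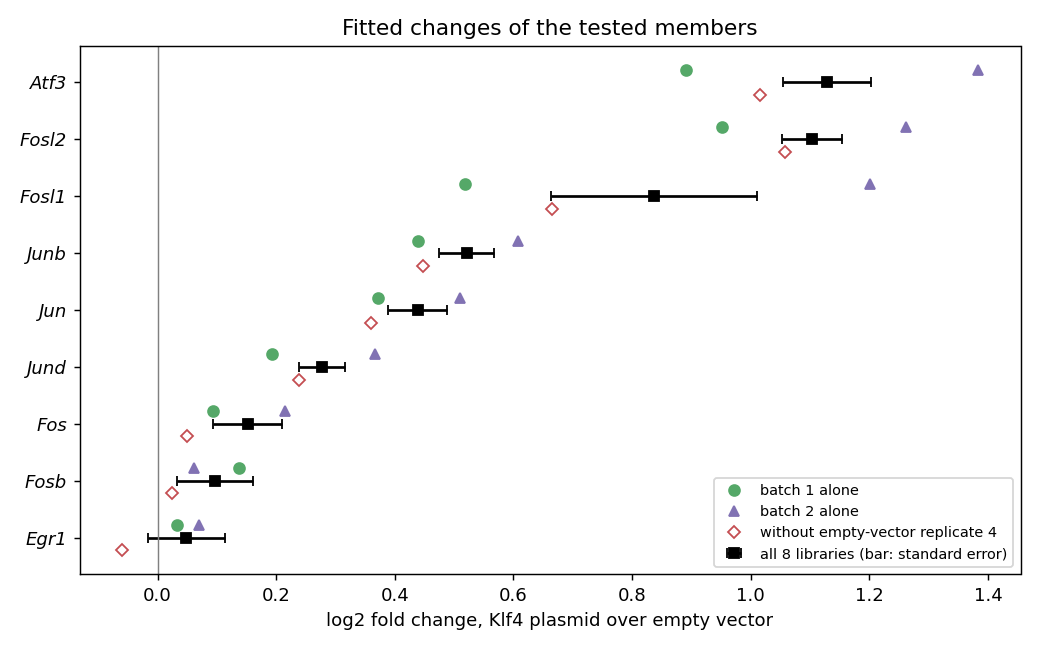
Log2 fold change of Klf4 over empty-vector libraries (x axis) for the 9 tested members (y axis), from all 8 libraries with its standard error (black), from each batch alone (green circles, purple triangles) and without empty-vector replicate 4 (red diamonds). Atf3 lies at 1.13 and Fosl2 at 1.10, and Fos moves from 0.15 to 0.05 and Egr1 from 0.05 to -0.06 when that library is left out.

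The members were then compared with each other within each library, a measure that does not depend on scaling between libraries. For 36 pairs of tested members the ratio was set against the group labels in an exact permutation test (two-sided), and for 21 pairs the groups did not overlap and gave the smallest p of the design (p = 0.0286, 0.049 after Benjamini-Hochberg adjustment over the 36 pairs). These relabellings ignore the batch. Relabelling within batches allows 36 arrangements and a smallest two-sided p of 0.0556, which 27 pairs reached, so that no pair could pass 0.05 there. The log2 ratio of Fos to Fosl2 was 2.81, 2.89, 3.10 and 2.67 in control replicates 1 to 4 and 1.89, 2.10, 1.88 and 1.84 in the Klf4 replicates, a fall of 0.94. Fosl2 thus gained on Fos in every Klf4 library. Fosl2 also gained on Jun by 0.66, on Junb by 0.58, on Jund by 0.83 and on Egr1 by 1.04 on the log2 scale. Each had an adjusted p of 0.049 in the exact permutation test. That value rests on the 21 pairs tied at the smallest p. The pairs share genes, and the ratios were added after their values were seen, so it is weak evidence for any single ratio. Fosl2 against Atf3 (-0.04, exact permutation p = 0.8) and Fos against Egr1 (0.10, p = 0.343) did not pass, and neither did Fos against Fosb (0.06, p = 0.686). Junb gained slightly on Jun, by 0.08, with the log2 ratio of Jun to Junb at 0.13 to 0.19 in control and 0.06 to 0.09 in Klf4 libraries (exact permutation p = 0.0286, adjusted 0.049).

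Levels of different genes were compared as CPM per kilobase of exon, with exonic lengths from GENCODE M21. In control libraries the order was Jund (130.1 ± 5.27), Fos (101.8 ± 14.5), Egr1 (101.5 ± 16.0), Junb (49.5 ± 3.62), Jun (39.9 ± 3.51), Fosb (26.2 ± 4.61), Atf3 (7.89 ± 1.44), Fosl2 (3.37 ± 0.342), Fosl1 (0.662 ± 0.211) and Batf (0.00721 ± 0.0144; SD, n = 4). The order of the means was the same in Klf4 libraries. Fos and Egr1 overlapped in both groups and cannot be ranked, and all other neighbours were separated in every library. Within the Fos family, Fos made up 77.1% ± 1.27 of the summed level per kilobase in control and 75.7% ± 2.06 in Klf4 libraries. Fosl2 made up 2.62%, 2.51%, 2.22% and 2.96% in control replicates 1 to 4 and 4.88%, 4.18%, 5.17% and 5.19% in the Klf4 replicates, so that the Fra-2 gene stayed a minor share of the family's RNA. In the Jun family Jund held 59.3% ± 1.63 in control and 55.8% ± 0.416 in Klf4 libraries, and Junb 22.5% ± 0.710 and 25.1% ± 0.279 (SD, n = 4). The summed level per kilobase of the Jun family was 206.1 to 229.5 in control and 263.4 to 313.2 in Klf4 libraries. That of the Fos family was 103.3 to 143.7 and 136.7 to 163.9, which overlap. These shares and sums are descriptions with no test.

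**Figure D4:**
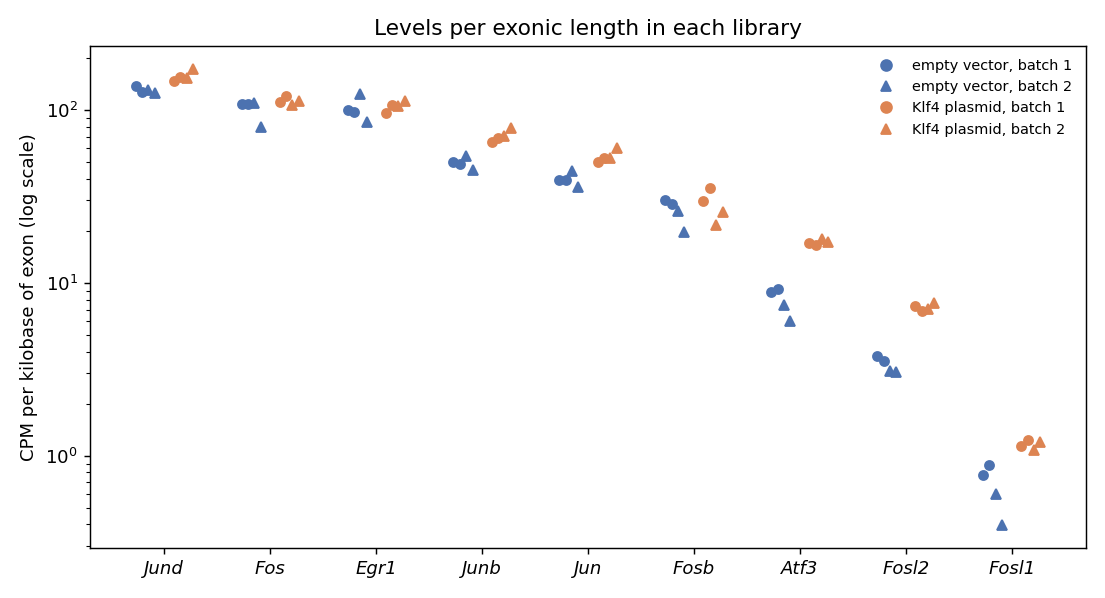
CPM per kilobase of exon (y axis, log scale) for the 9 members above the limit of detection (x axis, ordered by the control mean) in each library. Jund is highest and Fosl1 lowest, Fos and Egr1 overlap in both groups, and Atf3 and Fosl2 show the widest gaps between empty-vector (blue) and Klf4 (orange) points.

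Profiles over the 8 libraries were compared by the root mean square distance between mean-centred log2 CPM values, over the 8 members averaging a log2 CPM of 1 or more. The closest members were Jun and Junb, with a distance of 0.0450, and Jun was also the gene nearest to Junb among all genes compared. Fosl2 and Atf3 lay 0.113 apart and Fos and Egr1 0.131 apart. The widest distances were those of Atf3 from Egr1 (0.572) and from Fosb (0.562). Outside the members, the nearest genes were Dusp1 for Fos (0.0581), Socs2 for Jun (0.0657), Fignl2 for Junb (0.0476), Ass1 for Jund (0.0377), Elovl7 for Fosl2 (0.0685), Pqlc3 for Atf3 (0.0524), Srpk3 for Fosb (0.0861) and AV356131 for Egr1 (0.0650). Dusp1 encodes a phosphatase of MAP kinases and is itself an immediate early gene. It rose by 0.19 on the log2 scale, beside 0.15 for Fos. These distances are descriptions, and 8 libraries in 2 groups leave many genes with like profiles.

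Other immediate early genes moved in the same direction as most members. Of 29 listed genes 27 were tested, and 20 rose and 2 fell, 74.1% higher against 21.1% of all genes, with a median log2 fold change of 0.25. The largest rise was that of Plk2, a polo-like kinase gene, at 0.538 ± 0.0714 CPM in control and 1.69 ± 0.253 CPM in Klf4 libraries (SD, n = 4), a log2 change of 1.65 (edgeR adjusted p 6.86e-07). Arc, an activity-regulated gene known from neurons, went from 35.8, 33.7, 33.8 and 27.2 CPM in control replicates 1 to 4 to 71.4, 66.8, 71.3 and 77.1 CPM in the Klf4 replicates (log2 fold change 1.14, edgeR adjusted p 4.35e-13). Klf10, a Krüppel-like factor gene induced by TGF-β, rose by 1.13 (edgeR adjusted p 4.49e-12), by 0.85 in batch 1 and 1.43 in batch 2 (interaction adjusted p 1.08e-06). These folds are close to those of Fosl2 and Atf3. In the Egr family Egr3 rose by 1.04 and Egr2 by 0.58 (edgeR adjusted p 3.17e-08 and 0.000186), while Egr4 (0.05, edgeR adjusted p 0.742) and Egr1 were not called.

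The genes of the list that fell were Dusp6, which encodes a MAP kinase phosphatase (-0.20, edgeR adjusted p 0.000259), and Plk3 (-0.08, edgeR adjusted p 0.0397). The Plk3 call was lost in 10 of 21 alternatives, among them the one that blocks on the replicate number (edgeR adjusted p 0.063). The activity-dependent genes Nr4a2 (-0.06, edgeR adjusted p 0.398) and Npas4 (-0.08, edgeR adjusted p 0.318), Dusp4 (-0.07, edgeR adjusted p 0.113), Ier3 (edgeR adjusted p 0.971) and Egr4 were those not called. Without control replicate 4, 18 genes of the list were called, against 22 with it. Without the batch term 14 were called.

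Kinases and regulators upstream of these genes changed little. Of 20 listed and tested genes, 3 rose and 2 fell, 15% higher against 21.1% of all genes, with a median log2 fold change of 0.03. The kinase gene Mapk3, the JNK genes Mapk8 and Mapk9 and the p38 gene Mapk14 were not called, with log2 changes from -0.07 (Mapk9, edgeR adjusted p 0.125) to 0.01 (Mapk3, edgeR adjusted p 0.838). RNA levels say nothing of kinase activity. Srf, whose product binds the CArG box, was not called either (0.09, edgeR adjusted p 0.0896). The exception in size was Elk3, an ETS factor gene of the ternary complex family, at 2.15, 1.95, 1.99 and 1.37 CPM in control replicates 1 to 4 and 3.79, 4.15, 3.97 and 4.08 CPM in the Klf4 replicates (log2 fold change 1.10, edgeR adjusted p 5.78e-07). Its relative Elk1 fell by 0.16 (edgeR adjusted p 0.00317), a call lost in 3 of 21 alternatives (adjusted p up to 0.166). Rps6ka1 (0.23) and Map2k2 (0.17) rose, and the JNK3 gene Mapk10 fell by 0.18.

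Among other bZIP genes the directions were mixed. Of 21 listed genes 19 were tested, 7 rose (36.8%, against 21.1% of all genes) and 6 fell (31.6%, against 15.5%), and the median log2 fold change was -0.07. Batf3, a relative of Batf, stood at 0.877 ± 0.226 CPM in control and 2.15 ± 0.631 CPM in Klf4 libraries (SD, n = 4), a rise of 1.27 on the log2 scale (edgeR adjusted p 4.01e-05). The small Maf gene Mafk rose by 0.95 (edgeR adjusted p 1.09e-10), by 0.71 in batch 1 and 1.20 in batch 2 (interaction adjusted p 0.00325). Cebpb, which encodes C/EBPβ, rose by 0.86 (edgeR adjusted p 1.17e-13). The falls were smaller, led by Ddit3, the gene of the stress factor CHOP (-0.28, edgeR adjusted p 1.22e-05), Atf1 (-0.26, edgeR adjusted p 0.000249) and Atf5 (-0.20, edgeR adjusted p 0.000133). Atf4, which lies upstream of Ddit3 in the integrated stress response and is a known activator of Atf3, fell by 0.13 (edgeR adjusted p 0.000226). The groups overlapped for Atf4. At the RNA level Atf3 thus moved opposite to Atf4 and Ddit3, and a link between these changes was not tested.

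Textbook AP-1 target genes were uneven. Of 23 listed genes 17 were tested, 9 rose and 3 fell, 52.9% higher against 21.1% of all genes, with a median log2 fold change of 0.41. Timp1, an inhibitor of matrix metalloproteinases, rose from 0.255, 0.493, 0.325 and 0.249 CPM in control replicates 1 to 4 to 11.3, 10.6, 17.7 and 18.8 CPM in the Klf4 replicates (log2 fold change 5.44, edgeR adjusted p 6.02e-18). Plaur, the urokinase receptor gene, stood at 1.02 ± 0.434 CPM in control and 5.63 ± 0.920 CPM in Klf4 libraries (SD, n = 4), a rise of 2.47 on the log2 scale (edgeR adjusted p 6.17e-10). It rose by 1.84 in batch 1 and 3.24 in batch 2 (interaction adjusted p 0.0137). Areg, the gene of the growth factor amphiregulin, was called higher (edgeR adjusted p 0.000125) on few counts, 0, 4, 0 and 0 in control replicates 1 to 4 and 21, 10, 16 and 17 in the Klf4 replicates. The falls were those of the integrin gene Itga2 (-0.45, edgeR adjusted p 0.00321), Hmox1 (-0.17, edgeR adjusted p 0.00412) and the metallothionein gene Mt1 (-0.13, edgeR adjusted p 0.00432). The Mt1 call was lost in 3 of 21 alternatives (edgeR adjusted p up to 0.339). Mmp3 had no count in any library, and Mmp10, Mmp13, Il6, Ccl2 and Ereg were below the filter.

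**Figure D5:**
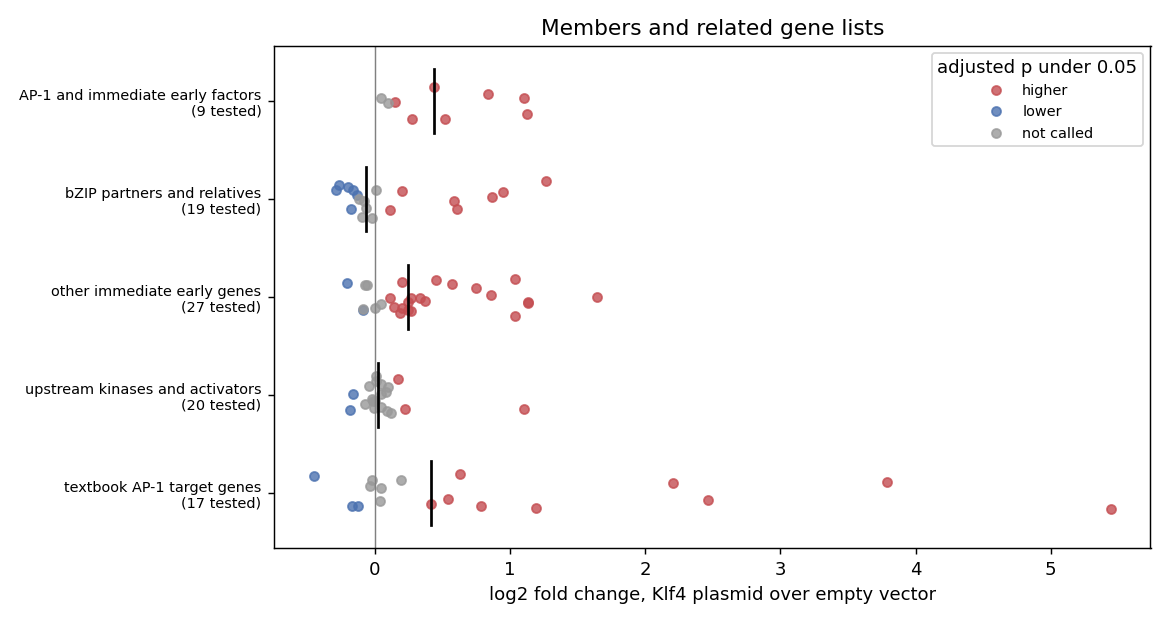
Log2 fold change (x axis) of every tested gene in the members and in the 4 related lists (y axis), coloured by call at an adjusted p under 0.05, with the list median as a black line. Medians are 0.44 for the members and 0.25 for other immediate early genes, and the point at 5.44 among the target genes is Timp1.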

How the data were processed

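The authors deposited whole-number read counts per gene, with no normalisation or pooling, in 1 column for each library. Per the submitters' processing notes, STAR, featureCounts, FastQC, edgeR and the build mm10 were used; versions, annotation and strand setting are not given in the sources used here. All 55536 pairs of identifier and symbol matched GENCODE M21 (GRCm38), which gave coordinates and exonic lengths. Counts were analysed here with edgeR 4.0.16 in R 4.3.3: filterByExpr with a minimum count of 10 kept 18266 genes, libraries (45417853 to 52731176 counts) were scaled with TMM factors, and glmQLFit with batch and plasmid terms was tested over all genes with Benjamini-Hochberg adjustment at 0.05. The batch term follows the series' design text. SEs are the fitted coefficient over the root of the F statistic. Exact permutation tests used the 70 relabellings of 4 against 4 (smallest p 0.0286). Members, lists and tests were chosen with earlier results of these data known. The ratios between members were added after their values were seen. Named genes were all members, up to 3 called genes of largest change per direction and list, nearest profiles, and others given beside them after their values were seen. The procedure was tested on simulated data.

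Same-numbered libraries of the groups correlated in their deviations from the group means at 0.459 to 0.614 over 10485 genes, those that shared only the batch at 0.459 to 0.574, and libraries of other batches at -0.633 to -0.45. With batch means removed, same-numbered libraries correlated at -0.05 in batch 1 and 0.08 in batch 2. The pairing thus came with the batch, which the model holds. Counts of libraries of a group differed beyond sampling noise in every pair (chi-square per degree of freedom 4.25 to 22.6), so all 8 were kept. DESeq2 1.42.0 and limma 3.58.1 served as alternatives.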

Additional observations from a re-analysis of the deposited data

Results flagged for a closer look

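In 26 checks for a library far from the other 3 of its group, 3 libraries stood out, where chance gives about 1 in 20 (1.3). Control replicate 4 held 188 CPM of Fos, against 254 to 259 CPM in the other control libraries. Control replicate 3 held 0.0406 CPM of Batf, which is 2 counts, against 0 in the others, and this is below the limit of 3 counts. With 0 in the others any count stands out in this check, so the chance rate does not apply to it. Klf4 replicate 2 had the lowest total of its group, 45417853 counts, against 51891997 to 52731176. The change of Atf3 differed between the batches (interaction 0.47 on the log2 scale, edgeR adjusted p 0.0191, 0.00133 to 0.265 over the alternatives). It was higher in Klf4 libraries of both batches.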

How the results depend on the processing

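Fosl2, Jun, Junb, Jund and Atf3 kept their direction and their call in all 21 alternatives, and Fosl1 in all but batch 1 alone. Fos was called in 10 of 21. The count of called members was 6 to 9 across alternatives. Fosb turned to -0.0170 with both control replicate 4 and the batch term left out, an alternative chosen after seeing the data, and Egr1 turned to -0.0593 without control replicate 4 and to -0.0323 without the batch term as well; it reached 0.148 without control replicate 3. Fosb was called without control replicate 3 (0.177), in batch 1 alone (0.138) and with no filter (0.0868). The cause was not tested. Of the other named genes, calls were lost in 10 of 21 alternatives for Plk3, 3 for Elk1 and Mt1, 2 for Dusp6, and 1 for Rps6ka1, Hmox1 and Itga2. Leaving out the batch term called 4116 genes in place of 6684, 71.8% of them higher in place of 57.7%, and 14 other immediate early genes. With control replicate 4 also left out, 3649 genes and 3 upstream genes were called. Scaling on genes of an average log2 CPM of at least 6 called 9 upstream genes and gave 72.7% higher calls, with 1644 lower genes in place of 2828. No scaling moved the median of all genes by more than 0.0345 on the log2 scale. Under a replicate block, which replaces the batch term, 7 members and 6284 genes were called, and among named genes it ended the call of Plk3 alone. Over fits that each left out a library, 6 to 9 members, 5889 to 7074 genes, and 0 to 2 members in the interaction test were called. With no filter on low counts, 2 members were called in that test. For the ratios, relabelling within batches was added after seeing the data. Depth limited Batf and Areg.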
